A study of Mus musculus with 6 samples.

Results

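The receptors that signal through gp130 and the Janus kinases bound to them were examined in mouse bone marrow cells given a mimic of the microRNA miR-142-3p. The group holds 10 genes: the cytokine gene Il6, the shared receptor subunit gene Il6st, its partner receptors Il6ra, Osmr, Lifr and Il27ra, and the kinases Jak1, Jak2, Jak3 and Tyk2. Its members were the probe sets annotated on the array with 1 of these symbols, 22 probe sets out of 45037, and they make up 10 of the 18193 genes measured. A further 2 probe sets are annotated to Jak3 together with Insl3 and were left out.

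Bone marrow cells of healthy C57BL/6 mice received, through the reagent GeneSilencer, either the mimic or a control oligonucleotide at 100 nM. After 5 h all cells were given GM-CSF and IL-6 for 4 days, which turns marrow into myeloid-derived suppressor cells, a mixed population of immature myeloid cells able to suppress T cell responses. RNA of each group was measured on 3 Affymetrix MOE430 2.0 arrays, numbered 1 to 3 as in their titles. Added IL-6 is thus common to both groups, and an array value reports the transcript of the cells' own Il6 gene, not the cytokine in the medium. The labels leave unsaid whether the 3 arrays per group were separate cultures or animals, so each p-value measures the spread among these arrays alone, and that spread may be technical. The mature microRNA is not read by these arrays, so its level after transfection was not checked.

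IL-6 binds its own receptor, IL-6R alpha, and the pair then recruits gp130, which carries no enzyme of its own. Janus kinases held on the tail of gp130 phosphorylate it and the transcription factor STAT3, which moves to the nucleus. Other cytokines use gp130 with another partner: leukaemia inhibitory factor with LIFR, oncostatin M with OSMR, and IL-27 with IL-27R alpha. JAK1 is the kinase on which gp130 depends most, while JAK2 and TYK2 also bind it. JAK3 serves receptors with the common gamma chain instead. In immature myeloid cells STAT3 is known for holding back maturation.

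The mimic stands for the mature microRNA mmu-miR-142a-3p, which RefSeq places at chr11:87756903-87756925 (GRCm38.p6, plus strand). It is shown because its seed, bases 2 to 8 in capitals, is what pairs with a target transcript. A transcript carries a match to this seed as ACACTAC, and 3′ UTR sequences were not used here.
mmu-miR-142a-3p: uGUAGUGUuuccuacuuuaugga

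Levels below are the deposited log2 values, as means ± SD over 3 arrays, and differences are mimic minus control on that log2 scale with ± SE. All tests are limma's, two-sided, with Benjamini-Hochberg adjustment and a threshold of 0.05. Each member probe set was tested among all 45037, and each gene, through its brightest probe set, among 18193. A level of 3 lies at the 72.9th percentile of the probe set means and a level of 5 at the 86.3rd, and probe sets with a mean below 3 in both groups are called dim. Arrays correlated with one another at 0.982 to 0.996 across probe sets. Control array 1 stood apart, at a root mean square distance of 0.36 from the other arrays of its group against 0.16 to 0.24 for the other arrays. Myeloid markers were detected in both groups: the mean level of the 9 measured was 8.03 to 8.10 in the control arrays and 7.72 to 7.79 in the mimic arrays, none lay below 1, and 3 of the 9 fell with the mimic.

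With the mimic, the kinase gene Jak1 was lower by its brightest probe set, in the test of 1 probe set per gene. It was the only member to pass, and it missed the threshold with any single array left out. When the array dropped was mimic 1, control 2 or mimic 3, 0 of all 18193 genes passed. Those misses therefore say nothing about Jak1 in particular. A second bright probe set of Jak1, 1433803_at, differed by -0.04. Il6st, the gp130 gene, lay on the other side, higher in all 3 mimic arrays than in any control array, without passing (adjusted p = 0.0526 by limma among genes). So 1 of 10 member genes passed, downward, where 1.59% of all genes passed downward, and 0 passed upward, where 1.17% did. Among all probe sets 0 of the 22 passed in limma, against 0.897% of all probe sets (0.329% upward and 0.568% downward), and 8 were at an unadjusted p under 0.05, against 13.4%. In 7 members every mimic array lay below every control array, where 8.90% of all probe sets did so, and in 1 every mimic array lay above, where 8.62% did. The separated share rises with brightness: among probe sets with a mean of at least 5, 21.1% were separated downward and 29.4% were at an unadjusted p under 0.05. The median difference of the 22 members was -0.16, that of the 7 that were not dim was -0.17, and that of all probe sets was 0.

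**Figure D1:**
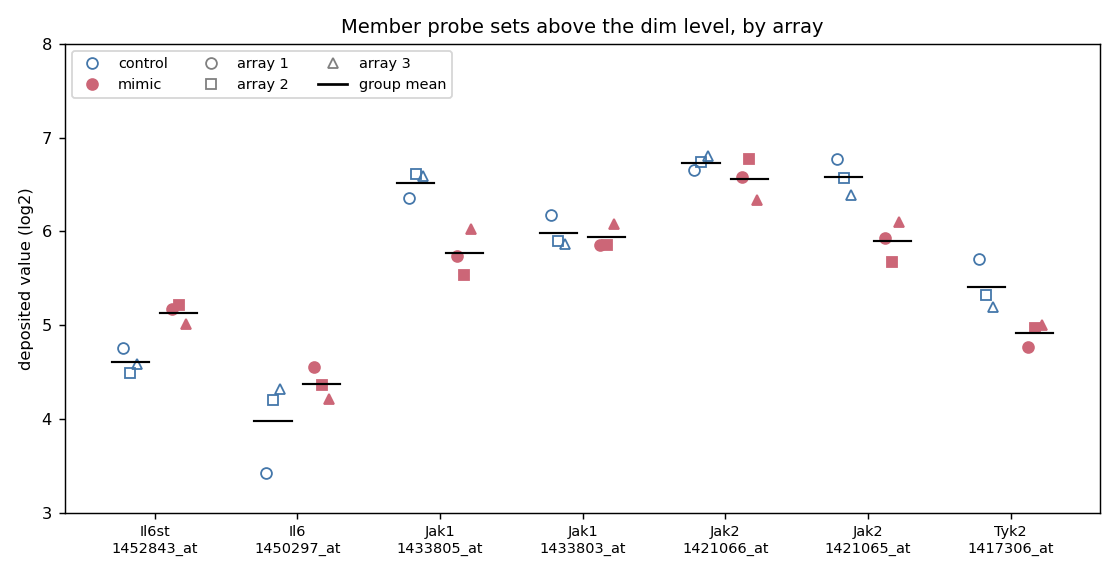
Deposited log2 values (vertical axis) of the 7 member probe sets that were not dim, 1 point per array with control open and mimic filled, marker shape giving the array number and bars the group means. The mimic arrays of Il6st 1452843_at lie above the controls, those of Jak1 1433805_at, Jak2 1421065_at and Tyk2 1417306_at lie below, and the groups overlap in the other 3.

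The ligand comes first. Il6, probed by 1450297_at, read 3.42, 4.20 and 4.32 in the controls, given here and below in the order of array 1, 2 and 3, against 4.55, 4.36 and 4.21 with the mimic. The groups overlapped, and the low control value was that of the array that stood apart. The difference of 0.39 ± 0.23 (95% interval -0.15 to 0.94) did not pass (adjusted p = 0.54 by limma), and without control array 1 it was 0.11.

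The subunit shared by all these receptors, gp130, has 4 probe sets on the array, and only 1452843_at is not dim. Its values were 4.76, 4.49 and 4.59 in the controls and 5.17, 5.21 and 5.01 with the mimic. Every mimic array was above every control array. The mean went from 4.61 ± 0.14 to 5.13 ± 0.11 (n = 3), a difference of 0.52 ± 0.11 (95% interval 0.27 to 0.77), or 1.43-fold, with an adjusted p of 0.0879 by limma among all probe sets. Without control array 1 the difference was 0.59, and Il6st then passed among genes (adjusted p = 0.0497 by limma).

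The other 3 probe sets of Il6st were dim and none was higher. Probe set 1460295_s_at had a mean of 2.33 in both groups (95% interval of the difference -0.38 to 0.38). Means of 1421239_at were 1.59 and 1.35 in control and mimic, a difference of -0.24 ± 0.12 (adjusted p = 0.453 by limma). In 1437303_at the controls spread from 0.28 to 1.21 and the mimic arrays from 0.32 to 0.54, a difference of -0.39 ± 0.22 (adjusted p = 0.517) that was -0.65 without control array 1 and -0.18 without control array 2. At such levels a probe set says little about its transcript, so the gp130 result rests on 1 probe set.

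Receptor partners of gp130 were all dim. Il6ra, the subunit that binds IL-6 itself, was at 1.79 ± 0.27 in control and 1.89 ± 0.12 with the mimic by its brighter probe set, 1422270_a_at (difference 0.10 ± 0.15, adjusted p = 0.839 by limma). Its dimmer probe set, 1452416_at, was separated downward, at 0.67 and 0.38 (difference -0.29, adjusted p = 0.353, and -0.18 without control array 3). Lifr, the LIF receptor gene, had means between 0.38 and 1.41 in its 3 probe sets, with differences from -0.14 to 0.11 and overlapping groups in each. Osmr, the oncostatin M receptor gene, had means between 0.16 and 0.95. Of its 3 probe sets 1418674_at was separated downward (difference -0.31 ± 0.13, adjusted p = 0.378, and -0.17 without control array 1), and the other two overlapped.

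Il27ra, which encodes the IL-27 receptor, was dim too. It read 1.69, 1.35 and 1.43 in the controls and 1.26, 1.16 and 1.06 with the mimic, so that all mimic arrays were lower. The difference was -0.32 ± 0.12, and it did not pass (adjusted p = 0.287 by limma). In all, 12 of the 14 probe sets for Il6 and the receptors were dim, against 3 of the 8 for the kinases.

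The kinases were measured better, and in 7 of their 8 probe sets the mimic mean was the lower, with 4 separated, where 8.90% of all probe sets and 21.1% of those with a mean of at least 5 were separated downward. Jak1, whose product is the main kinase of gp130, gave 6.36, 6.61 and 6.59 in the controls by its brightest probe set, 1433805_at, and with the mimic 5.74, 5.54 and 6.03. The lowest control lay above the highest mimic array. The mean was 6.52 ± 0.14 in control and 5.77 ± 0.25 with the mimic (n = 3), a difference of -0.75 ± 0.14 (95% interval -1.08 to -0.41), or 1.68-fold. It passed among 18193 genes (adjusted p = 0.0373 by limma) and missed among 45037 probe sets (adjusted p = 0.0701). With any single array left out the difference lay between -0.88 and -0.63, and the gene then missed the threshold each time (adjusted p from 0.0668 to 0.182 by limma). Without control array 1 it was -0.83 (adjusted p = 0.0668). Jak1 missed there although 356 genes passed, and without control array 3 although 413 did. Only 65 genes passed when mimic array 2 was dropped. When the array dropped was mimic 1, control 2 or mimic 3, 0 of all genes passed, so Jak1 could not be judged.

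A second Jak1 probe set of near brightness did not show this difference. Its values, by 1433803_at, were 6.17, 5.90 and 5.87 in the controls and 5.86, 5.86 and 6.08 with the mimic. The groups overlapped, and the difference was -0.04 ± 0.12 (95% interval -0.32 to 0.23, adjusted p = 0.919 by limma). The third, 1433804_at, was dim, at 1.02 ± 0.34 and 0.46 ± 0.26 (difference -0.56 ± 0.20, adjusted p = 0.274), with overlapping groups. All 3 are assigned to the same gene record in the platform annotation, and their positions along the transcript were not read.

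The estimates from the probe sets of Jak2 were unlike as well, though here the brightest showed the smaller difference. A direct test of that gap, given below, did not pass. The JAK2 kinase serves the GM-CSF receptor as well as gp130. Its brightest probe set, 1421066_at, read 6.65, 6.74 and 6.81 in the controls and 6.58, 6.77 and 6.34 with the mimic, a difference of -0.17 ± 0.12 (95% interval -0.46 to 0.12, adjusted p = 0.633 by limma). The groups overlapped there, and the value was -0.27 without mimic array 2 and -0.06 without mimic array 3. The other, 1421065_at, read 6.77, 6.57 and 6.39 against 5.93, 5.67 and 6.10, with no overlap. Its mean went from 6.58 ± 0.19 to 5.90 ± 0.22, a difference of -0.67 ± 0.14 (95% interval -1.01 to -0.34), or 1.60-fold (adjusted p = 0.0965 by limma). Both share 1 gene record as well.

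Tyk2, the kinase of the IL-12 and type I interferon receptors, read 5.71, 5.32 and 5.19 in the controls and 4.77, 4.97 and 5.00 with the mimic by 1417306_at. All mimic arrays were below all controls. The difference of -0.49 ± 0.15 (95% interval -0.84 to -0.14), or 1.41-fold, did not pass (adjusted p = 0.207 by limma). Control array 1 held the highest value, and without it the difference was -0.34. A dim probe set of Tyk2, 1432576_at, was at 1.16 and 1.31 (adjusted p = 0.697).

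Jak3, the kinase of the common gamma chain receptors, was dim by 1425750_a_at. Its values were 2.76, 2.53 and 2.51 in the controls and 2.32, 2.35 and 2.29 with the mimic, separated downward by a small amount. The difference of -0.28 ± 0.10 missed the threshold (adjusted p = 0.276 by limma).

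**Figure D2:**
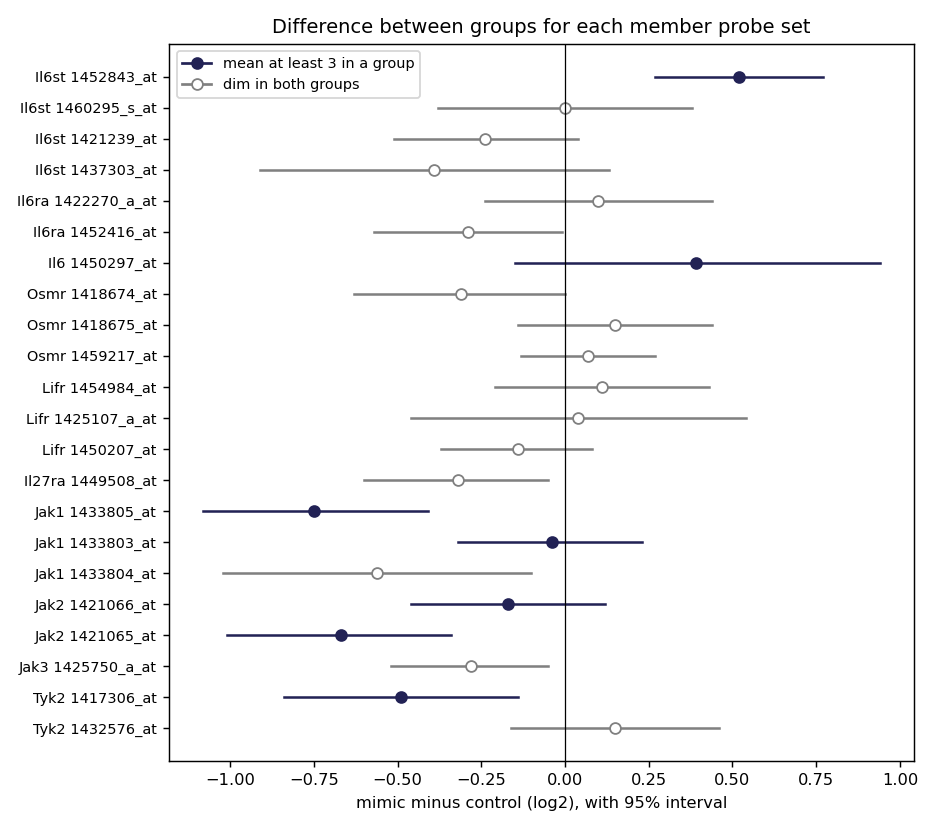
Mimic minus control difference (log2, horizontal axis) of each of the 22 member probe sets with its unadjusted 95% interval, filled where a group mean reaches 3 and open where the probe set is dim. Of the filled points Il6st 1452843_at lies at 0.52 and Jak1 1433805_at at -0.75, while the second bright Jak1 probe set lies at -0.04.

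The disagreement between probe sets of 1 gene was tested by itself. This test was chosen with earlier results on the Jak1 and Il6st probe sets known. In each array the brightest probe set of a gene was subtracted from each of its others, and the groups were compared on that value over 16752 pairs. None of the 12 member pairs passed, against 0.298% of all pairs, and 8 were at an unadjusted p under 0.05, against 13.4%. Pairs of 1 gene share its brightest probe set, so these are not separate observations. For Jak1, 1433803_at moved 0.70 ± 0.19 above 1433805_at with the mimic, and missed the threshold (95% interval 0.29 to 1.12, adjusted p = 0.182 by limma). For Jak2, 1421065_at moved -0.50 ± 0.23 relative to 1421066_at (95% interval -1.03 to 0.02, adjusted p = 0.395), a shift of -0.29 without mimic array 2, so a difference between the Jak2 probe sets was not established. The dim probe sets of Il6st moved by -0.52, -0.76 and -0.91 relative to the bright one (adjusted p from 0.181 to 0.323 by limma), and without control array 1 the pair with 1437303_at passed (adjusted p = 0.0266). In Tyk2 the dim probe set moved 0.64 ± 0.19 above the bright one (adjusted p = 0.214). Pairs of a bright and a dim probe set differ in level from those of Jak1 1433803_at and Jak2, in which both are bright. Whether a dim probe set follows a change of its transcript was not tested. The dim Jak1 probe set, 1433804_at, moved 0.19 ± 0.17 relative to 1433805_at (adjusted p = 0.682 by limma).

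**Figure D3:**
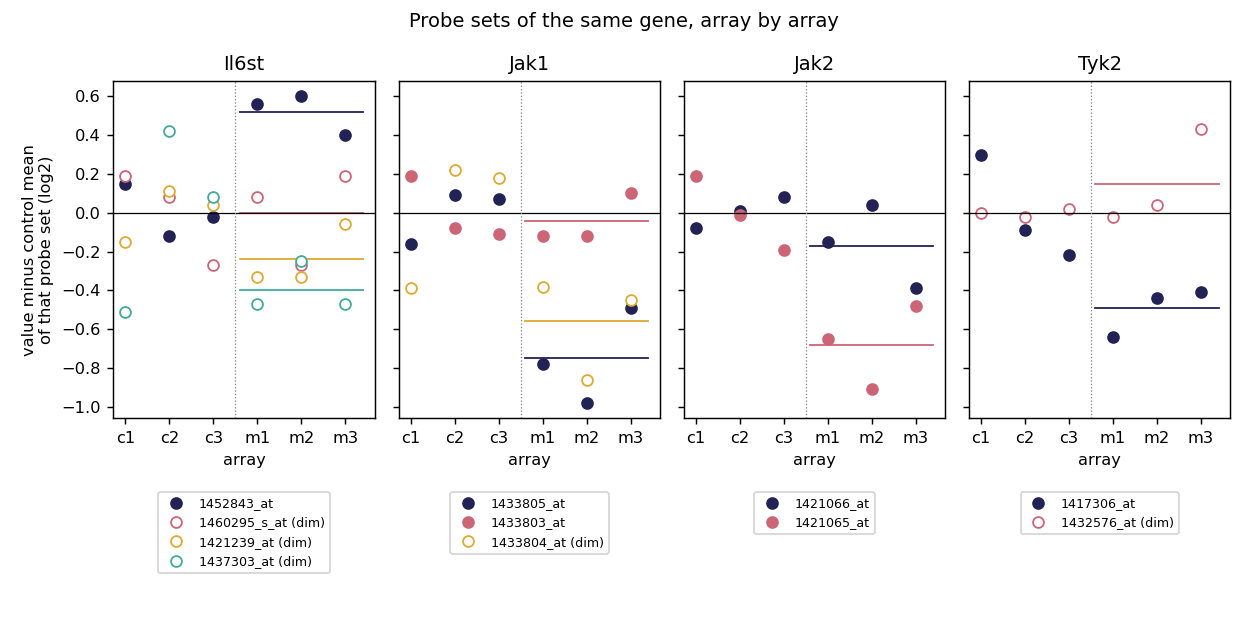
Values of each probe set of Il6st, Jak1, Jak2 and Tyk2 minus that probe set's own control mean (log2, vertical axis) in control arrays c1 to c3 and mimic arrays m1 to m3, open where dim, with lines at the mimic means. In Jak1 the mimic mean of 1433805_at lies at -0.75 and that of 1433803_at at -0.04, and in Jak2 those of 1421066_at and 1421065_at lie at -0.17 and -0.67.

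The promoter of Jak1, the gene that passed, was searched for the sites that STAT and interferon-activated factors read. It holds no match to either motif, in the forms given below. In RefSeq (GRCm38.p6) it spans chr4:101265174-101265473 on the minus strand, from 250 bases before to 50 after the start of the gene. The capitals mark a CCAAT box and a cAMP response element, TGACGTCA, whose motifs were chosen after this sequence was seen.
Jak1 promoter: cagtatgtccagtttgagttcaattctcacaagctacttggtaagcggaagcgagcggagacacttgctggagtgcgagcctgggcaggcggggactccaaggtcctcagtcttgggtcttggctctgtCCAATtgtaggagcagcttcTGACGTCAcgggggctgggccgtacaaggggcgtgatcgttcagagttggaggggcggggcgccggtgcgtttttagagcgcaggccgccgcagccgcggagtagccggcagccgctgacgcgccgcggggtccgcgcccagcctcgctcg
Of the member genes 9 matched the table, with 10 windows of this length, and Il27ra did not. The STAT motif TTCNNNGAA was found on either strand in 0 of the 10 member windows and in 8.30% of all 32851 windows. The core of the interferon response element, TTTC and TTTC on 1 strand with 2 bases between, was in 0 of 10 and in 3.44% of all. CCAAT was in 5 of 10 and in 37.4% of all, and TGACGTCA in 1 of 10 and in 1.79% of all. A match is a description of the letters, and its absence says only that they are not in these windows.

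Genes whose level followed a member's most closely over the 6 arrays were sought among genes with a mean of at least 5. For Il6st these were Prkrip1, Nsmce1 and Ttc13, with Pearson r of 0.995, 0.991 and 0.990 over 4093 genes compared. For Jak1 they were Mef2a, Ndc1 and Actg1, at 0.994, 0.991 and 0.990 over 4092 genes. None of the 6 passed the test among genes. Their differences were small, from 0.20 to 0.34 beside Il6st and from -0.20 to -0.15 beside Jak1. All these points share the 6 arrays and the split into groups.

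The other ligands and receptors of the gp130 and IL-12 families were mostly dim. Of 21 listed, 15 were measured and 3 had a mean of at least 3. Among those measured 1 passed upward and 0 downward, where 1.17% and 1.59% of all genes did. Their median difference was -0.01. The one that rose was Il12rb1, which encodes a chain of the IL-12 and IL-23 receptors bound by TYK2. It read 2.18, 2.04 and 2.45 in the controls and 3.39, 3.16 and 2.84 with the mimic, a difference of 0.90 ± 0.17 (adjusted p = 0.0333 by limma). Among all probe sets it missed the threshold (adjusted p = 0.0645 by limma). Osm, the oncostatin M gene, was at 5.96 ± 0.17 in control and 5.46 ± 0.05 with the mimic, separated downward, yet missed the threshold (adjusted p = 0.057). Ebi3, a subunit of IL-27 and IL-35, was at 7.27 ± 0.07 and 7.31 ± 0.08 (adjusted p = 0.903). Without control array 1 the difference of Il12rb1 was 0.88 and it missed (adjusted p = 0.108 by limma), and of the fits without a single array only that without control array 3 kept it. When the array dropped was mimic 1, control 2 or mimic 3, 0 of all 18193 genes passed. The misses of Il12rb1 in those fits are therefore not particular to it.

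Of the STATs, adaptors and regulators of these kinases 32 of 33 were measured, and 0 passed upward and 1 downward. Of all genes 1.17% passed upward and 1.59% downward. More pass among brighter genes. In the fit of genes with a mean of at least 3, adjusted among fewer genes, 300 of 7662 passed upward and 408 downward. Of the 32 measured here, 29 had such a mean. In this list 23 had a lower mean (median difference -0.10, against 0.01 for all genes). Hcls1, a cytoskeletal adaptor of haematopoietic cells, fell from 6.20 ± 0.14 to 5.62 ± 0.08 (difference -0.58 ± 0.10, adjusted p = 0.0309 by limma). Among all probe sets it missed the threshold (adjusted p = 0.0569 by limma). Stat3, the main factor downstream of gp130, was at 6.42 ± 0.31 and 6.37 ± 0.08, with overlapping groups (difference -0.05 ± 0.15, adjusted p = 0.916). Its feedback inhibitor Socs3 was at 6.37 ± 0.20 and 5.92 ± 0.17, separated downward without passing (adjusted p = 0.144), and Socs2 was at 5.85 ± 0.14 and 5.31 ± 0.13 (adjusted p = 0.0536). Without control array 1 the gene of this list that passed was Ptpn1, a phosphatase gene chosen here after its values were seen, in place of Hcls1.

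Other receptors that use Janus kinases were measured in 25 of 28 cases, of which 0 passed upward and 4 downward, with a median of -0.02. Over all genes 1.17% passed upward and 1.59% downward. Of the 25 measured, 15 had a mean of at least 3, a level at which more genes pass. Csf2rb2 (-0.68 ± 0.11), Csf2rb (-0.53 ± 0.11) and Csf2ra (-0.49 ± 0.10), the receptor chains for GM-CSF and its relatives, fell (adjusted p = 0.0218, 0.048 and 0.041 by limma). Among all probe sets the brightest of Csf2rb missed the threshold (adjusted p = 0.0823 by limma). Csf2ra was named after its values were seen. Ifnar1, a chain of the type I interferon receptor to which TYK2 binds, read 5.26, 5.19 and 5.03 in the controls and 4.49, 4.54 and 4.58 with the mimic. It fell by 0.62 ± 0.10 (adjusted p = 0.0213 by limma). Its other probe set, 1442222_at, was dim and differed by -0.05. With probe sets averaged Ifnar1 missed the threshold (adjusted p = 0.0988 by limma). Beside it, interferon response genes moved the other way: 9 of 11 measured rose and 0 fell, and their mean level ran from 6.11 to 7.05 in control arrays and from 7.97 to 8.17 in mimic arrays. Of the 4 receptor genes, Csf2rb2 and Ifnar1 passed without control array 1 and without control array 3, and 0 of the list passed without any other single array. Those other fits had little power: of all 18193 genes, 65 passed when mimic array 2 was dropped and 0 in the rest. Under the 11 other settings 0 to 8 genes of the list passed downward.

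Among 30 genes known to respond to gp130 and STAT3, all measured, 2 passed upward and 4 downward, with a median of -0.05. The shares over all genes were 1.17% upward and 1.59% downward. Of the 30, 29 had a mean of at least 3. In the fit of genes with such means, adjusted among fewer genes, 300 of 7662 passed upward and 408 downward. Timp1, a protease inhibitor of the acute phase, fell from 5.99 ± 0.48 to 4.43 ± 0.29 (difference -1.55 ± 0.25, adjusted p = 0.0218 by limma), and without control array 1 by 1.34 (adjusted p = 0.0612). Icam1, an adhesion molecule gene, fell from 6.29 ± 0.17 to 5.35 ± 0.11 (adjusted p = 0.0123). Fgl2, whose secreted product restrains T cells, rose from 4.87 ± 0.41 to 6.31 ± 0.20 (adjusted p = 0.0168). The others that passed, named after their values were seen, were Irf1, an interferon-induced transcription factor (0.78), and Hp and Il1rn, genes of haptoglobin and the IL-1 receptor antagonist (-0.67 and -0.66). Without control array 1 or 3 the genes passing were 2 upward with 2 and 4 downward, and with another array left out at most 1 passed. Of all 18193 genes, only 65 passed when that other array was mimic 2, and 0 passed otherwise. Under the 11 other settings 1 to 3 passed upward and 1 to 7 downward. Many of these genes answer to interferon and other signals too, and the part of the interferon response in them was not tested.

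Genes for shedding and turnover of the IL-6 receptors were all measured, 10 of 10. In the gene test 0 passed in either direction, against 2.76% of all genes, though 9 of 10 had a lower mean (median -0.26). A mean level of at least 3, where more genes pass, was reached by 9 of the 10. Adam17, the protease that sheds IL-6R alpha from the cell surface, read 7.29, 6.86 and 6.46 in the controls and 6.19, 6.13 and 6.04 with the mimic by its brightest probe set (difference -0.75 ± 0.19, adjusted p = 0.0954 by limma). Its other two probe sets also had lower means: 1421859_at passed among all probe sets (difference -0.96 ± 0.13, adjusted p = 0.032 by limma) and 1421857_at did not (-1.69 ± 0.31, adjusted p = 0.0646). The gene passed without control array 3 and under 5 of the 11 other settings tried. Adam10, a related protease, was at 6.80 ± 0.03 and 6.95 ± 0.07 (adjusted p = 0.466).

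**Figure D4:**
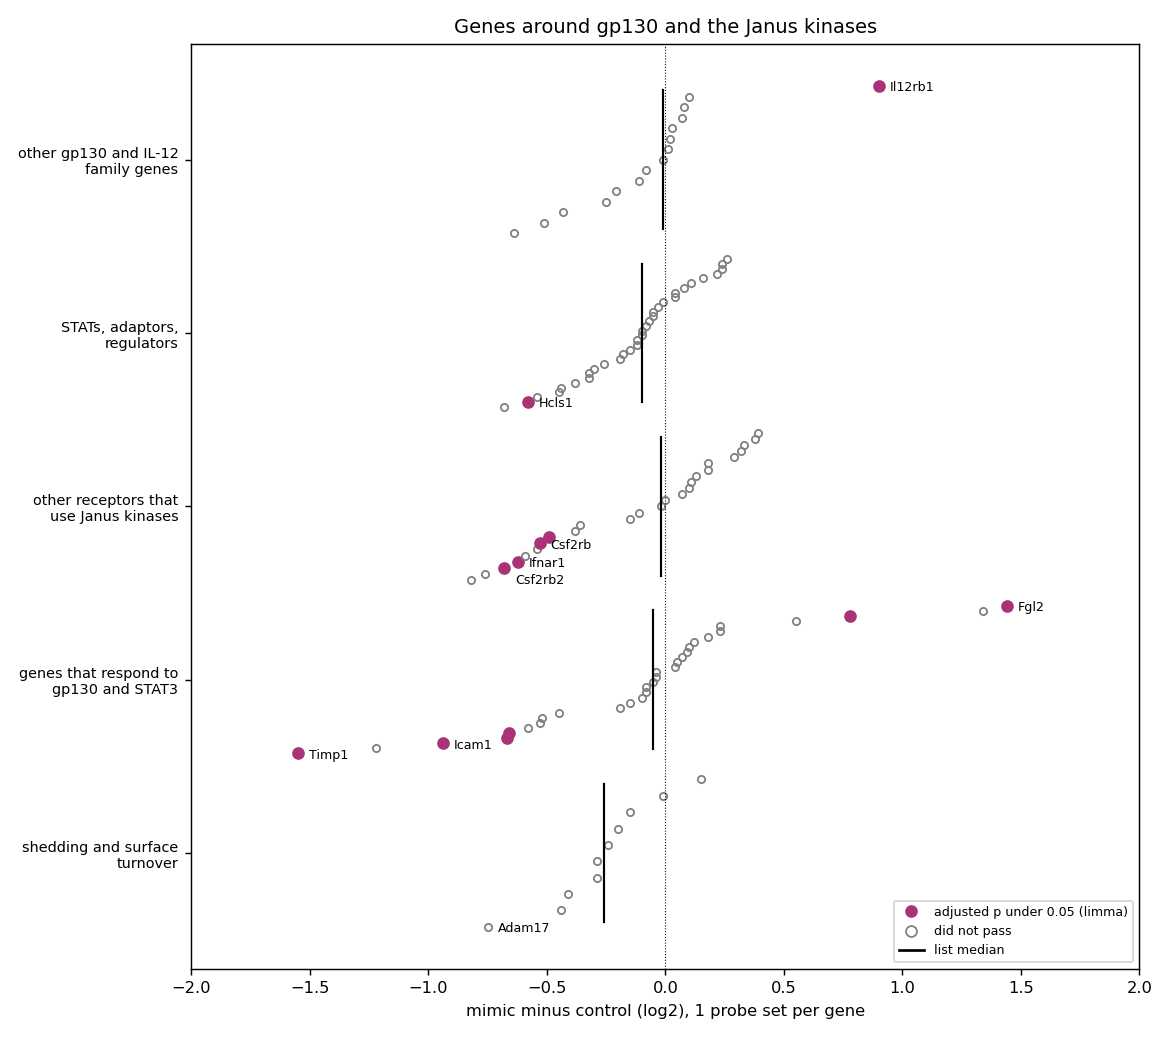
Mimic minus control difference (log2, horizontal axis) of every measured gene in the 5 related lists, 1 probe set per gene, filled where the adjusted p is under 0.05, with a bar at each list's median. The medians lie between -0.26 and -0.01, Fgl2 lies furthest right at 1.44 and Timp1 furthest left at -1.55.

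The cultures differed in their cell type markers as well, and in bulk RNA fewer cells of a type cannot be told apart from less RNA per cell. The counts below stand beside 1.17% of all genes passing upward and 1.59% downward. At a mean of at least 3, in a fit adjusted among fewer genes, 300 of 7662 passed upward and 408 downward. Such a mean was reached by all 10 neutrophil precursor and all 9 myeloid markers, and by 10 of 15 dendritic cell markers. Of 15 dendritic cell markers 9 fell and 0 rose, and their mean level was 5.00 to 5.89 in control arrays and 3.88 to 3.96 in mimic arrays. Of 10 neutrophil precursor markers 2 rose and 0 fell, at 8.13 to 8.99 and 9.42 to 9.50. Of 8 mast cell and basophil markers 2 rose, at 4.09 to 4.79 and 5.26 to 5.29, and of 12 macrophage markers 2 rose and 1 fell, at 5.35 to 5.61 and 5.59 to 5.67. Myeloid markers fell in 3 of 9 cases, Itgam (-1.19, adjusted p = 0.017 by limma), Csf1r (-0.57) and Lyz2 (-0.53), and 0 rose. Of 12 fibroblast and endothelial markers, of cells that carry much Il6st, Osmr and Lifr, 2 fell and 0 rose. Means were higher in 6 of them and lower in 6, with a median difference of 0. Dcn, which encodes the matrix protein decorin, fell from 3.62 ± 0.22 to 2.04 ± 0.27 (-1.58, adjusted p = 0.00747 by limma), and the collagen gene Col1a2 from 4.37 ± 0.16 to 3.42 ± 0.24 (-0.95, adjusted p = 0.0202). Pdgfra, Pdgfrb, Lum, Cdh5 and Tek lay below 1 in both groups, and the mean of the list was 1.88 to 2.12 in control arrays and 1.72 to 1.88 in mimic arrays. Of 8 T and NK markers 1 rose and 1 fell: the granzyme gene Gzmb went from 1.72 ± 0.36 to 3.74 ± 0.28 and the surface glycoprotein gene Thy1 from 6.79 ± 0.50 to 4.43 ± 0.05 (adjusted p = 0.00731 and 0.00673 by limma). The 3 measured T cell receptor complex genes, Cd3e, Cd3d and Cd3g, had means of 0.71 to 2.28. Of 7 B and plasma cell markers 1 fell and 0 rose, and of 6 megakaryocyte markers 0 passed. These marker genes were named after their values were seen. The part of these shifts in the values of Jak1, Il6st and the other members was not tested.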

How the data were processed

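The authors deposited 1 log2 value per probe set and array. The submitters' processing notes name RMA and affy without a version or a role, and how probe sets were defined, centred or filtered is not given in the sources used here. Values run from -0.39 to 12.3, with 52.6% below 1, and were used as deposited. Of 45101 probe sets, 64 Affymetrix controls were left out. In the platform annotation 34945 carry 1 symbol, 932 several and 9160 none. For 34741 of the 34945 the gene was found in RefSeq, whose current symbol was used, and 204 kept the annotation's. The brightest probe set stood for each gene. The comparison used lmFit and eBayes of limma 3.58.1 (R 4.3.3) with no covariate. A run on simulated data required only right signs of called differences and mean estimates near those put in. With 3 arrays per group the median SE was 0.12. Members and lists were chosen with earlier results of these data known. The naming rule took up to 3 passing genes per related list by size of difference, otherwise the 1 with the largest difference among those with a mean of at least 3. Other list genes were named for their role or after their values were seen. Other settings comprised a replicate block, single arrays left out, filters at 3 and 5, other variance models, array weights, centring, quantile normalisation, a minimum fold of 1.2, other probe set choices and the spike-in level as a covariate. The list counts under these settings were added after the main counts were seen.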

Additional observations from a re-analysis of the deposited data

How the results depend on the processing

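No pairing by replicate number was seen: same-numbered deviations correlated at -0.13, 0.34 and -0.30, and 2 of 6 arrays correlated best with their own number. With 3 arrays per group such a check cannot exclude pairing. With the replicate block, 0 member genes, probe sets and pairs passed (Jak1 adjusted p = 0.0615 by limma). Jak1 also missed with a minimum fold of 1.2 (0 member genes lower) and with the probe set of largest variance (0 lower, adjusted p = 0.0537). With a gene's probe sets averaged, Jak2 passed downward (adjusted p = 0.0267) and Jak1 did not (0.0868). Il6st passed upward, as the 1 member gene to do so, at a mean of at least 3 (adjusted p = 0.0267), with trended robust variance (0.0378), array weights (0.00878), median centring (0.0438) and quantile normalisation (0.0384). With the spike-in covariate 2 member genes passed upward, Il6st and Il6, and 2 downward, Jak1 and Tyk2. In the main fit 503 of 18193 genes passed, and more did under each of these settings in which Il6st passed. At a mean of at least 3 the count was 708 of 7662. It was 749 with trended robust variance, 1047 with array weights and 561 with median centring. Quantile normalisation gave 620 and the spike-in covariate 2002. Averaged probe sets, with which Jak2 passed, gave fewer than the main fit, 477. Among probe sets, Il6st 1452843_at passed upward (1) at a mean of at least 3 and with array weights. Jak1 1433805_at and Jak2 1421065_at passed downward (2) at means of at least 3 and 5 and with trended robust variance, Jak1 1433805_at alone (1) with array weights, and Jak2 1421065_at with Tyk2 1417306_at (2) with the spike-in covariate. Array weights let 3 member pairs pass. A filter tests fewer probe sets; for the other settings the cause was not tested. With 1 array left out, 0 to 1 member genes passed upward, 0 downward, 0 probe sets in either direction and 0 to 1 pairs. Over all genes, leaving out mimic array 1, mimic array 3 or control array 2 let 0 pass (2343, 2746 and 2564 at an unadjusted p under 0.05 by limma).

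Directions turned in dim probe sets and small differences. Il6st 1460295_s_at was at 0.07 with array weights, 0.05 with quantile normalisation and -0.14 to 0.13 with an array left out. Il6ra 1422270_a_at was at -0.06 with the spike-in covariate, as was its gene, and -0.04 to 0.23 with an array left out. The gene Il6ra was at -0.10 with probe sets averaged and -0.29 with the most variable one, where Il6st was at -0.03 and -0.39. Lifr 1425107_a_at was at -0.24 with the spike-in covariate and -0.15 to 0.20 with an array left out, its pair at -0.38 to 0.13, and Jak1 1433803_at at -0.12 to 0.05. Over all probe sets 148 passed upward and 256 downward, which became 315 and 316 with quantile normalisation and 1221 and 917 with the spike-in covariate. Over all genes 213 and 290 became 329 and 291, and 1123 and 879. In the related lists, counts under the 11 settings other than leaving out arrays ran as follows. Other gp130 and IL-12 family genes gave 0 to 1 upward and 0 to 1 downward, the latter Osm. STATs, adaptors and regulators gave 0 to 2 and 0 to 3, and other receptors that use Janus kinases 0 to 1 and 0 to 8, with 0 at a minimum fold of 1.2 and 8 with the spike-in covariate. Genes that respond to gp130 and STAT3 gave 1 to 3 and 1 to 7, the 7 with array weights. Shedding and turnover genes gave 0 upward and 0 to 3 downward, Adam17 passing in 5 settings (adjusted p = 0.0143 with probe sets averaged, 0.0263 with the spike-in covariate by limma).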
